A study of Schizosaccharomyces pombe with 4 samples.

Results

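Association of the RNA helicase Upf1 with the genes of fission yeast (Schizosaccharomyces pombe) was compared between a culture in S phase and an asynchronous culture. The comparison covered all 4888 genes of the deposited table and used 2 of the 4 arrays of the series, 1 immunoprecipitation (IP) array for each culture. For every gene the log2 of the S-phase value over the asynchronous value was taken and the median of this over all genes was subtracted. That quantity is called the S-phase difference below. It is 0 at the median gene and is given on the log2 scale, so that 1 means a doubling relative to the median gene.

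Upf1 is the central helicase of nonsense-mediated decay, the pathway that removes mRNAs with premature stop codons, and it has also been found on chromatin. In fission yeast S phase follows mitosis directly and overlaps with septation, the building of the wall that divides the daughter cells. A synchronous culture in S phase is therefore known for transcribing histone genes, G1-S genes under the transcription factor MBF and, around cell division, genes whose products dissolve the septum.

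Upf1 carried an HA tag at its own locus and chromatin was recovered with an antibody against HA. The S-phase culture was synchronised through cdc25-22, a temperature-sensitive allele of the phosphatase that lets cells enter mitosis. It was kept at 37 °C for 3.5 h, shifted back to 25 °C and fixed 60 min later. The asynchronous culture was described as untreated, as were the 2 input arrays that served both cultures. The HA-tagged strain that the study lists with cdc25-22 also carries ade6-704, leu1-32 and ura4-D18, and the strain of the asynchronous culture is not given in the sources used here. The sample titles of the 2 IP arrays end in date-like numbers of different years and carry different replicate numbers. Differences of strain, temperature history, array and apparent date therefore cannot be told apart from the cell cycle stage. The authors made IP arrays in duplicate and used the better one of each culture. With 1 array for each culture no replicate error exists and no test was made.

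The deposited value of a gene is its IP signal over its mean input signal. The same input mean divides both columns and cancels in the comparison. The median of the ratios was 0.774 in asynchronous cells and 0.195 in S-phase cells. Since the arrays had not been scaled to each other, a level below always means the log2 of the ratio after subtraction of the median of its own column. The S-phase levels were also more widely spread over genes, with a standard deviation (SD) of 0.48 against 0.34. A wider spread alone gives high genes a positive difference and low genes a negative difference. Counts and list medians, and many single values, are therefore given a second time after the S-phase log2 column was multiplied by 0.715, which brings both columns to the same SD, and this is called the scaled difference. Hybridised ChIP DNA has no strand, so genes that overlap on the chromosome cannot be separated. Besides the genes marked for this below, lys4, ptr2, gdh1, agn1, mid2, mis18, atg8, mcp60, str2 and SPAC607.02c overlap another coding gene. Overlap with genes that are not coding is not marked. Any annotated overlap was present at 4447 of the genes, and covered at least 50% of the length at 2876. It covered 100% of cdc22 and hta1, 91.4% of eng1 and 84.1% of cdc18, none with a coding gene. Marked overlaps can be small, as at gst3 with 1.35%.

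Short stretches of the promoters of histone and MBF genes are shown because both groups lay at the high end of the difference. They come from the RefSeq sequence of assembly ASM294v3 and were searched from 250 bases before to 50 bases after the annotated gene start, on both strands. The histone box AACCCT was present in all 9 core histone promoters and in 9.79% of all promoters. Capitals mark the box, or its reverse complement AGGGTT, in the strand of the named gene.
hhf1 (chrI:4699640-4699675): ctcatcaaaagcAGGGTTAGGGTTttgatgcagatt
hhf2 (chrII:1365048-1365083): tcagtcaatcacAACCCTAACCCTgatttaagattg
hhf3 (chrII:3529615-3529650): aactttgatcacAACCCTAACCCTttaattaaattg
hta2 (chrI:4053359-4053394): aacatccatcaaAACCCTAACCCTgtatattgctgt
The stretches of hhf1, hhf2 and hhf3 lie between divergent genes and serve hht1, hht2 and hht3 as well.

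The MBF motif ACGCGT occurred in 8 of 18 promoters of the MBF list (44.4%) and in 3.24% of all promoters. It is shown in capitals for 5 members with a match, from tos4 and cdc22 among the higher genes to mrc1 near the median gene.
cdc22 (chrI:4226896-4226935): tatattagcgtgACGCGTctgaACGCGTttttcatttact
tos4 (chrI:1922452-1922481): aaaatcaataaaACGCGTcgcgacgcggct
cdt1 (chrII:477303-477332): gatagctacgcgACGCGTcaacaaacgcga
yox1 (chrII:1648163-1648192): tgatatagcgcgACGCGTcgttaaacgtga
mrc1 (chrI:4212429-4212468): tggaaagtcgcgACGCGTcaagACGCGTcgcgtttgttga
Genes with a match did not all lie high, and not all high genes had a match in this window, cdc18 and cig2 among them. Over all genes at least 1.5-fold above the median gene ACGCGT was found in 2.75% of promoters and AACCCT in 12.6%, and over those that stayed so after the scaling in 2.35% and 8.24%. Neither motif was thus more frequent than in all promoters on both scales.

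Most genes kept their place between the cultures. The quartiles of the S-phase difference were -0.19 and 0.19, and those of the scaled difference were -0.14 and 0.14. At least 1.5-fold above the median gene, which is the threshold used for every count below, were 185 genes (3.78%), and at least 1.5-fold below it were 197 (4.03%). After scaling the counts were 89 (1.82%) and 104 (2.13%). Centring both columns on the 25% of genes with least Pol II gave 258 higher and 140 lower genes. Of the 185 higher genes 86 were among the 89, and of the 197 lower genes 94 were among the 104. Also when the columns were brought to the same median absolute deviation, were quantile normalised, had a GC trend removed or were centred on genes with little Pol II, 85 genes stayed higher and 80 stayed lower.

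**Figure D1:**
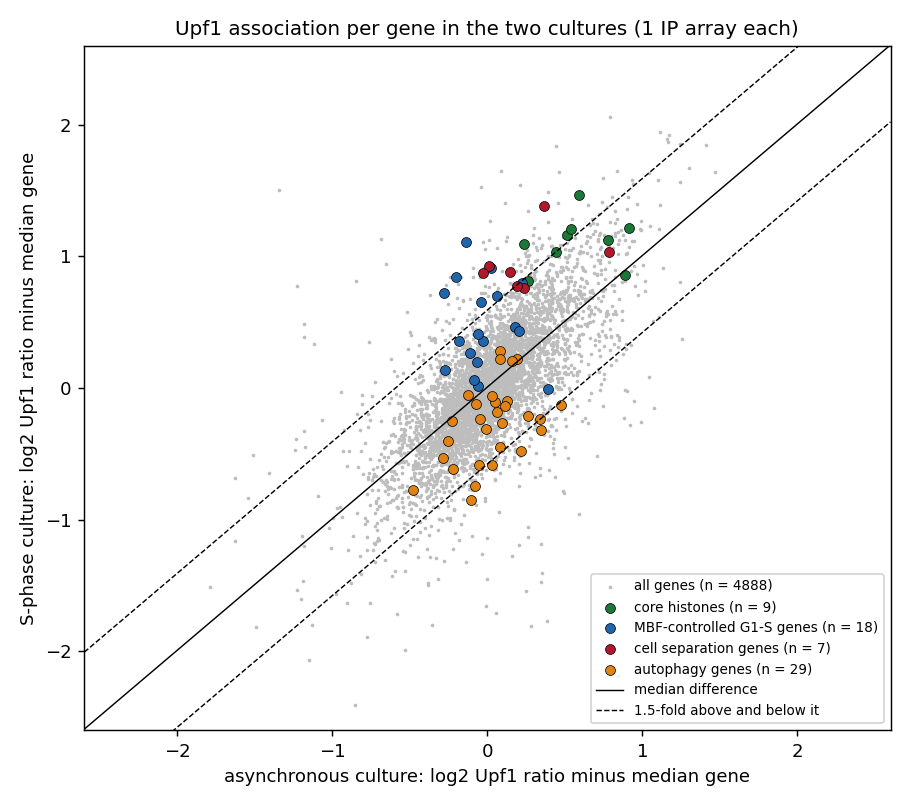
Log2 Upf1 ratio of each of 4888 genes relative to the median gene, for asynchronous cells (horizontal) and S-phase cells (vertical), with 1 array each. The solid line is the median difference and the dashed lines are 1.5-fold from it; histone, MBF and cell separation genes lie mostly above the solid line and autophagy genes mostly below.

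Histone genes were already above the median gene in asynchronous cells and lay further above it in S-phase cells. The list holds 9 core histone genes, with median levels of 0.54 (asynchronous) and 1.12 (S phase). The S-phase difference was above 0 at 8 of 9, and 5 of 9 (55.6%) reached the threshold. The highest was hta1, which encodes histone H2A, with levels of 0.59 and 1.47 and a difference of 0.87. An H4 gene, hhf1, had levels of 0.24 and 1.10 and a difference of 0.85. The exception was the H3 gene hht2, with levels of 0.89 and 0.86 and a difference of -0.04. Its divergent partner hhf2, an H4 gene behind the same box, had 0.54 and 1.21, a difference of 0.67, so the members of a divergent pair did not lie together. The other pairs also differed in size, with 0.87 at hta1 against 0.30 at htb1, 0.85 at hhf1 against 0.54 at hht1, and 0.59 at hhf3 against 0.34 at hht3. In each of the 4 divergent pairs the H4 or H2A gene had the larger value. The genes hhf3 and hht3 each have a near-identical copy elsewhere, and htb1 and hht3 overlap another coding gene, so their array signals are uncertain. Partial copies also exist for hht1, hhf2 and hhf1, over 49.94%, 40.08% and 38.57% of their length. These lie below the 50% of length required here for a near-identical copy. Shared hybridisation at these genes, and its part in the differences within the H3 and H4 pairs, was not tested. After scaling the median of the list was 0.31 and no member reached the threshold.

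The MBF list was near the median gene in asynchronous cells and mostly above it in S-phase cells, with medians of -0.06 and 0.42. The difference was above 0 at 17 of 18 genes before and also after scaling. Of 18 genes 6 (33.3%) reached the threshold, and 4 did so after scaling. The replication licensing factor cdc18 had levels of -0.14 and 1.11, a difference of 1.24 and a scaled difference of 0.92. The S-phase cyclin gene cig2 had -0.20 and 0.84, a difference of 1.04 and a scaled difference of 0.80. At tos4 the levels were -0.28 and 0.72, a difference of 0.99 and a scaled difference of 0.79. These 3 genes were below the median gene in the asynchronous culture and well above it in S phase. The large subunit of ribonucleotide reductase, cdc22, had 0.02 and 0.91, a difference of 0.88 and a scaled difference of 0.62. The licensing factor cdt1 reached 0.68 and the MBF co-repressor nrm1 0.63, and neither reached the threshold after scaling. The gene of the ribonucleotide reductase inhibitor spd1 lay on the other side, with a level of 0.39 in asynchronous cells and that of the median gene in S-phase cells, a difference of -0.40. Of the genes named here cig2 and nrm1 overlap another coding gene. The checkpoint mediator mrc1, with 2 matches to the motif in its promoter, had 0.07.

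Genes for septum dissolution gave the highest median of the fixed lists with more than 3 members, at 0.72 before and 0.47 after scaling. All 7 members had a difference above 0, and 4 (57.1%) reached the threshold before and 3 after scaling. The highest member, adg1, had levels of 0.36 and 1.38, a difference of 1.01 and a scaled difference of 0.62. At eng1, which encodes the endo-glucanase of the septum, the levels were 0.01 and 0.93, a difference of 0.91 and a scaled difference of 0.64. The glucanase gene agn1 had -0.03 and 0.88, a difference of 0.90 and a scaled difference of 0.65. The lowest member was the septin organiser mid2, with 0.78 and 1.03, a difference of 0.24 that was -0.05 after scaling. The 20 genes of cell wall and septum synthesis had a median of 0.20 with 4 higher, and after scaling a median of 0.01 with none past the threshold.

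**Figure D2:**
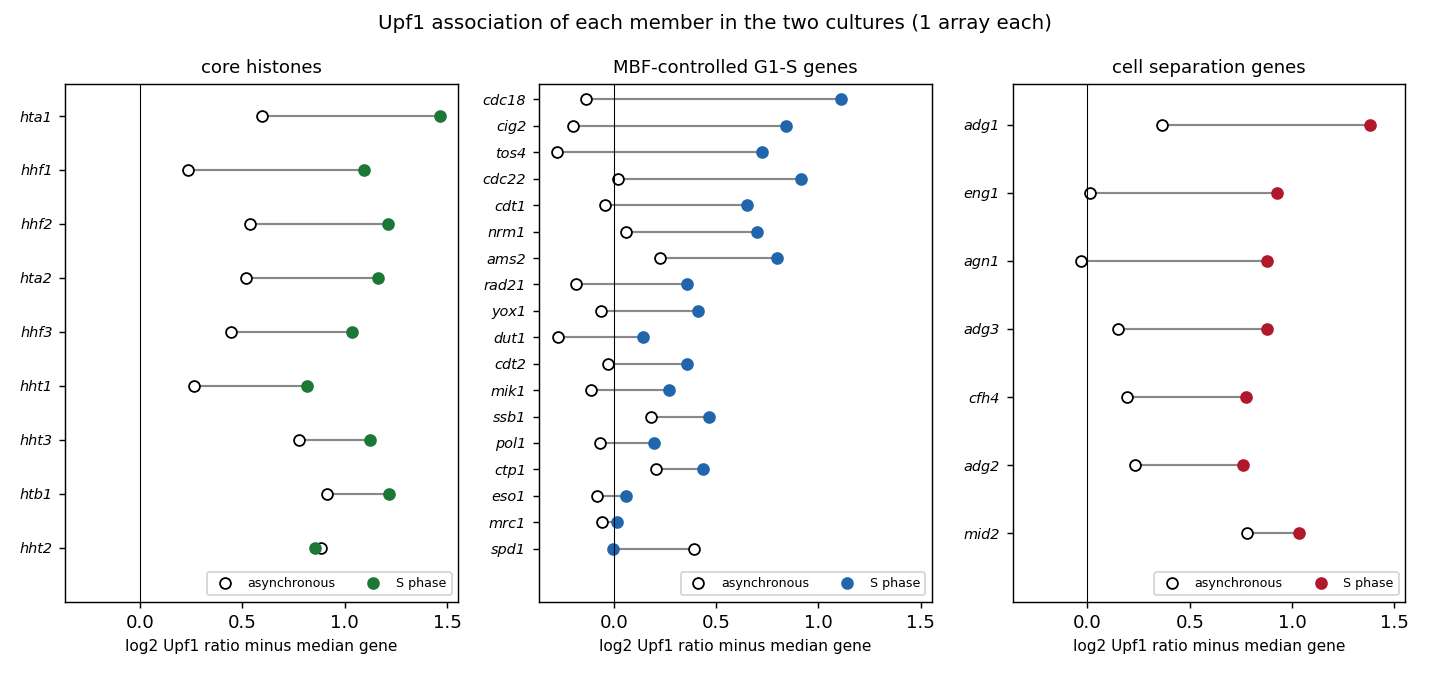
Log2 Upf1 ratio relative to the median gene (horizontal) of each histone, MBF and cell separation gene of asynchronous cells (open) and S-phase cells (filled), 1 array each, ordered by the difference. All members move to the right except hht2 and spd1.

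Other genes of the cell cycle did not follow these lists. The 21 mitotic regulators and forkhead-controlled genes had a median of 0.10, and 1 of them, the anaphase activator slp1, reached the threshold with levels of -0.02 and 1.06, a difference of 1.07 and a scaled difference of 0.77. By their consecutive identifiers slp1 and eng1 are neighbours, so their values may share ChIP fragments and are not independent. The 51 listed genes of replication forks, origins and licensing had a median of -0.01 with none above the threshold. The licensing genes cdc18 and cdt1 are not in this list and were counted with the MBF genes. Both were above the threshold before scaling, and after scaling only cdc18 was. The clamp loader subunit gene rfc4 was lower, with levels of 0.31 and -0.50, a difference of -0.81 and a scaled difference of -0.67. The 9 cohesin genes had a median of 0.22 before and 0.20 after scaling, without a member past the threshold. Of the 37 kinetochore and centromere genes 7 (18.9%) were lower and 1 was higher, with a median of -0.14. The DASH complex gene duo1 had levels of 0.26 and -1.06, a difference of -1.33. The Mis16-Mis18 complex gene mis18 had -0.58 and -1.72, a difference of -1.14. The single higher gene was dad2, also of the DASH complex, with -0.92 and -0.32, a difference of 0.59 that was 0.69 after scaling. After scaling 2 kinetochore genes were lower, duo1 and mis18, and the median was -0.03.

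Metabolic genes with strong Upf1 association were also found at the high end, most of them before scaling only. Of the 12 glycolysis genes 3 were higher, and none after scaling. The aldolase gene fba1 had levels of 1.17 and 1.92, a difference of 0.74, and a scaled difference of 0.19. Enolase (eno101) had 1.16 and 1.89, and phosphoglycerate mutase (gpm1) had 1.16 and 1.87. From its genome browser profiles the paper instead lists gpm1 among highly transcribed genes with little or no Upf1. The deposited ratio of gpm1 differs from that description, and the reason was not tested. The gene gpm1 also overlaps the coding gene mug106, which had a difference of -0.89. The median of the list was 0.45 before and 0.12 after scaling. The alcohol dehydrogenase gene adh1 gave the same picture with 1.11 and 1.95, a difference of 0.83 and a scaled difference of 0.27. The second alcohol dehydrogenase, adh4, had lower levels of 0.16 and 0.94, and its difference of 0.77 was 0.50 after scaling.

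Genes of amino acid synthesis lay above the median gene in larger number. Of 66 genes 56 (84.8%) had a difference above 0 and 13 (19.7%) reached the threshold, with none on the lower side. After scaling 54 remained above 0, but only lys4 was past the threshold. That gene encodes homocitrate synthase of lysine synthesis and had levels of 0.06 and 1.06, a difference of 0.99 and a scaled difference of 0.69. The isomeroreductase gene ilv5 of branched-chain amino acid synthesis had 0.46 and 1.41, a difference of 0.94. The phosphoglycerate dehydrogenase gene ser3 of serine synthesis had 0.30 and 1.21, a difference of 0.91. The median of the list was 0.31 before and 0.15 after scaling.

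Ammonium and glutamate metabolism stood higher, although the list of 6 genes was drawn up after their values were seen. All 6 had a difference above 0 and 5 reached the threshold, but after scaling only amt1 did, with a median of 0.75 before and 0.48 after. The ammonium transporter amt1 had 0.26 and 1.35, a difference of 1.08 and a scaled difference of 0.69. The glutamate dehydrogenase genes gdh1 and gdh2 had differences of 0.86 and 0.76. Glutamate synthase (glt1) had 0.74 and glutamine synthetase (gln1) had 0.67. Of 21 amino acid and peptide transporters, likewise listed afterwards, 4 were higher, and 3 after scaling. The permease aat1 had -0.24 and 0.85, a difference of 1.08, and the peptide transporter ptr2 had -0.03 and 1.11, a difference of 1.13. Both kept more than 1.5-fold after scaling, at 0.84 and 0.81.

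Iron uptake gave 3 higher genes of 9 and none lower. The iron permease fip1 had levels of -0.05 and 0.84, a difference of 0.89, and the ferroxidase fio1 that works with it had -0.16 and 0.67, a difference of 0.82. Both are repressed by the iron sensor Fep1 when iron is plentiful, and fep1 itself had 0.16 and 0.91, a difference of 0.74. After scaling fip1 and fio1 remained past the threshold at 0.64 and 0.63, whereas fep1 had 0.48. The genes fip1 and fio1 have consecutive identifiers, so their values may share ChIP fragments and are not independent. The siderophore transporter str2 lay at -0.44, so the list did not move as a block.

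**Figure D3:**
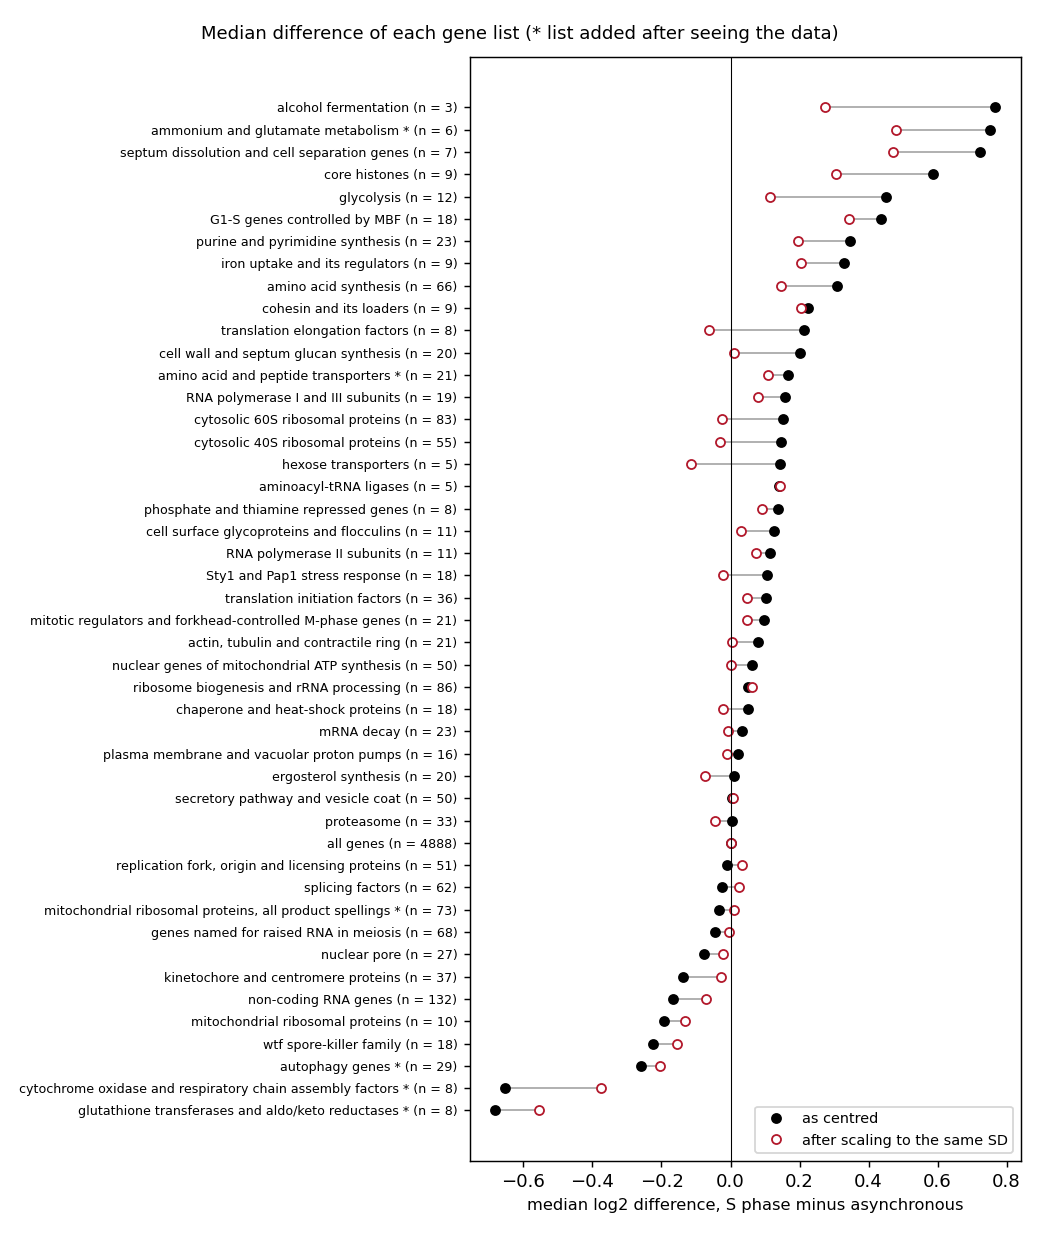
Median S-phase difference (horizontal, log2, 0 is the median gene) of each gene list before scaling (filled) and after scaling both columns to the same standard deviation (open); the number of members is given with each name and a star marks lists added after the values were seen. The cell separation list moves from 0.72 to 0.47, glycolysis from 0.45 to 0.12, and both ribosomal protein lists from 0.15 to just below 0.

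Ribosomal protein genes, which hold strong Upf1 signals in both cultures, showed how the 2 scales diverge. The 83 genes of the 60S subunit had median levels of 0.53 and 0.67 and a median difference of 0.15, with 2 higher and none lower. After scaling the median was -0.02. The 55 genes of the 40S subunit had 0.15 and -0.03. The direction of both lists thus depends on the scaling. Related lists, the 36 translation initiation factors (median 0.10), the 86 ribosome biogenesis genes (0.05) and the 73 mitochondrial ribosomal proteins (-0.03) lay near the median gene, and none of these lists had more than 2 members past the threshold on either side. The HomolD motif CAGTCACA of ribosomal protein promoters was found in 6.59% of promoters of higher genes and 2.85% of all, but in 1.18% of those that stayed higher after scaling.

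Several lists described for the lower end were drawn up after the values were seen, so they cannot show how common such genes are there. Of the 8 glutathione transferases and aldo/keto reductases, 1 such list, 5 were lower and 4 remained so after scaling, with medians of -0.68 and -0.56. The transferase gst2 had levels of 1.04 and 0.08, a difference of -0.97, and gst3 had 0.49 and -0.78, a difference of -1.28. The reductases SPAC19G12.09 and SPBC8E4.04 had -0.93 and -0.75. The member gst4 lay at 0.40 on the other side.

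Autophagy genes, also listed afterwards, were lower as a group by a smaller amount. Of 29 genes 5 had a difference above 0 and none was higher, whereas 7 (24.1%) were past the lower threshold, against 4.03% of all genes. Because the list was chosen with the values in view, this share cannot be read as an excess. The median was -0.26 before and -0.20 after scaling, and none remained past the threshold after scaling. The ubiquitin-like protein gene atg8, whose product is joined to the membrane of the autophagosome, had levels of 0.22 and -0.48, a difference of -0.70. The E2-like enzyme gene atg10 had -0.11 and -0.85, a difference of -0.75. The highest member was atg24 at 0.20.

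Nuclear genes of mitochondrial ATP synthesis lay near the median gene as a list, with a median of 0.06 over 50 genes, or 0.00 after scaling, but a few of them were among the lowest genes of all. Of these 50, 5 were lower and 1 was higher, and after scaling 4 and 1. The ATP synthase subunit tim11 had levels of 0.25 and -1.54, a difference of -1.80. The copper chaperone cox17 of cytochrome oxidase had 0.06 and -1.71, a difference of -1.77. The F0 subunit atp17 had -0.18 and -1.15, a difference of -0.98. In the opposite direction atp14 had -0.37 and 0.39, a difference of 0.76. A list of 8 assembly factors of cytochrome oxidase and the respiratory chain, cox17 among them, was drawn up after its values were seen. It had 4 lower genes and none higher, with a median of -0.65, and 3 lower genes and a median of -0.38 after scaling. The mitochondrial genes tim13 and mpc2 lay at the high end and are given below. The gene cox17 is 501 bp long, and genes under 600 bp, which are 4.66% of all, made up 9.19% of the higher and 13.2% of the lower genes.

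Stress genes did not move together. The 18 chaperone and heat-shock genes had a median of 0.05, and the scaled median was -0.02. The small heat-shock gene hsp9 was lower, with levels of 0.92 and -0.28 and a difference of -1.20, and hsp16 was lower at -0.59. The mitochondrial chaperonin gene mcp60 was higher at 0.80. After scaling hsp16 had -0.44 and mcp60 0.47, both short of the threshold. The 18 genes of the Sty1 and Pap1 stress response had a median of 0.11, with 13 above 0, none higher and 1 lower. Their scaled median was -0.02, with 8 above 0. The motif TGACGT of the stress factor Atf1 was found in 8.99% of promoters of lower genes, in 9.34% of those of higher genes and in 5.92% of all. Among genes that stayed lower after scaling the share was 13.5%, and among those that stayed higher 7.06%. The heat-shock motif GAANNTTC was found in 10.1% of lower and 8.79% of higher genes, against 11.1% of all, and the forkhead motif GTAAACA in 15.3% and 15.9%, against 16.3%.

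Single genes with the largest difference that held on both scales were chosen among protein-coding genes of at least 600 bp without a near-identical copy. At the high end the thioredoxin-related gene pmp20 had levels of 0.09 and 1.65, a difference of 1.55 and a scaled difference of 1.08. The lifespan gene ecl1 had 0.44 and 1.84, a difference of 1.39, and the mitochondrial pyruvate carrier gene mpc2 had 0.21 and 1.54, a difference of 1.33. The mitochondrial import gene tim13 had -0.27 and 0.79, a difference of 1.05. The set of 12 was completed by cdc18, aat1, SPCC1884.01, SPCC569.05c, sro1, SPBC3E7.07c, SPAC683.02c and SPAC607.02c, and the 12 differences ran from 0.81 to 1.55. In 8 of the 12 the asynchronous level was below the median gene.

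At the low end the ribosome assembly gene loc1 had levels of 0.28 and -1.81, a difference of -2.10 and a scaled difference of -1.58. The coproporphyrinogen oxidase gene hem13 of heme synthesis had 0.99 and -0.26, a difference of -1.26. The Rheb GTPase gene rhb1, which acts on TOR signalling, had 0.95 and -0.10, a difference of -1.05. The methionine sulfoxide reductase gene mxr2 had the level of the median gene in asynchronous cells and -1.45 in S-phase cells, a difference of -1.46. With tim11, hsp9, cbp6, gst3, duo1, SPAC343.20, SPBC1711.15c and SPAC56F8.13 these made up the 12 lowest, which ran from -2.10 to -1.05. Except for mxr2, which was at the median gene, all of them were above it in the asynchronous culture. Of these 12 genes loc1, tim11, cbp6, gst3, SPAC343.20, SPBC1711.15c and SPAC56F8.13 overlap a neighbouring coding gene. The deposited S-phase ratios of loc1, tim11 and SPAC343.20 were only 0.056, 0.067 and 0.070, against 0.195 at the median gene. Those of hem13 and rhb1 were 0.163 and 0.182. How near the lowest ratios lie to the background of the array was not tested.

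Non-coding RNA genes occupied both extremes. The highest difference of all genes was 2.85 at SPNCRNA.120, with levels of -1.35 and 1.51, and the lowest was -3.03 at prl24, with 0.84 and -2.19. Among the 132 non-coding genes 27 (20.5%) were lower and 12 (9.09%) were higher, against 4.03% and 3.78% of all genes, and the counts after scaling were 15 and 10. Of the 132, 54 are shorter than 600 bp, SPNCRNA.120 among them at 118 bp.

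The left end of chromosome III stood out along the chromosomes. Over all 4823 runs of 10 consecutive listed genes the median difference went from -0.53 to 0.71, and the highest run was the left end of chromosome III. Its 10 outermost genes had a median of 0.71 before and 0.60 after scaling, with 6 higher and none lower. The pseudogene SPCP20C8.03 had levels of -1.23 and 0.78, a difference of 2.00. Next to it SPCP20C8.02c had -1.18 and 0.49, a difference of 1.66, and SPCP20C8.01c had -0.04 and 1.53, a difference of 1.56. These have near-identical copies elsewhere, which share hybridisation. Of the 6 genes further in that have no such copy 3 were higher, SPCC1884.01 with 1.45, the nickel transporter nic1 with 0.72 and the glyoxalase hsp3101 with 0.71, and the other 3 lay between -0.07 and 0.15. At the right end SPCC569.03 had 1.81, SPCC569.02c 1.66 and the spermidine transporter family gene SPCC569.05c 1.28, and the median of the outermost 10 was 0.44. Of these 3 genes SPCC569.03 and SPCC569.02c have near-identical copies elsewhere as well. This right end was not particular, since the right end of chromosome II also had 3 of 10 genes higher. A run inside chromosome II, from SPNCRNA.105 to ilv5, had a larger median of 0.49.

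The left end of chromosome I was the opposite extreme, with a median of -0.53 and 5 of 10 genes lower. It contains the fluoride channel gene fex1, with levels of 0.39 and -1.77 and a difference of -2.17, which has a near copy in fex2. Of these 10 genes 7 have a near-identical copy. The remaining 3 ends had medians between -0.06 and 0.22. Whole chromosomes differed little, with medians of -0.02, 0.01 and 0.06 for I, II and III. Over 4847 neighbouring pairs the Spearman coefficient was 0.17 before and 0.19 after scaling, a description across genes that share fragments and overlapping ends.

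**Figure D4:**
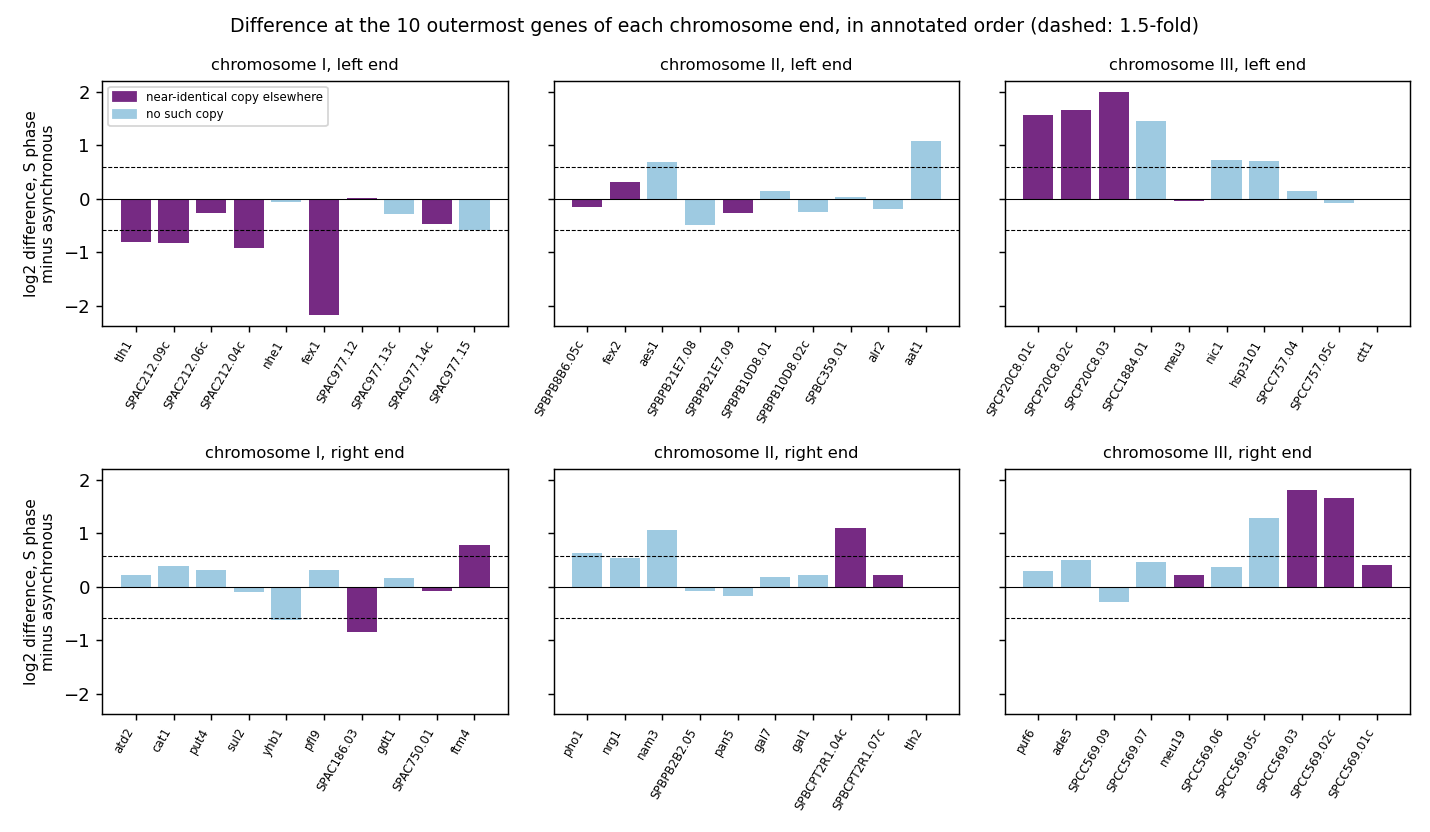
S-phase difference (vertical, log2) of the 10 outermost listed genes at each chromosome end, from left to right in annotated order; dashed lines are 1.5-fold and purple bars have a near-identical copy elsewhere. At the left end of chromosome III 6 of 10 bars pass the upper line, and at the left end of chromosome I 5 of 10 pass the lower line.

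Elsewhere on chromosome III the neighbouring genes ura4 and pmp20 lay at opposite ends. The orotidine decarboxylase gene ura4 had levels of 0.61 and -0.25, a difference of -0.87 and a scaled difference of -0.80, while pmp20 beside it was the highest of the 12 named above. The ura4-D18 allele in the listed cdc25-22 strain is a deletion at this locus, and its part in both values was not tested. The other strain with HA-tagged Upf1 that the study lists also carries an allele, written as ura-D18. The gene leu1, at which the cdc25-22 strain carries another allele, had levels of 0.24 and 1.03. Its difference was 0.78 and its scaled difference 0.48, whereas ade6 had a difference of 0.01. The tagged gene upf1 had a difference of 0.03 and cdc25 had 0.12. These 5 genes were chosen for their place in the strain and after their values were seen.

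The position of a gene at either end was related to its transcription, as far as other cultures show it. The deposited table holds the ratio of Pol II phosphorylated on Ser5 and the RNA level, which the authors averaged from published data of cultures other than these. Across genes, which are not replicates, the S-phase difference had a Spearman coefficient of 0.28 with Pol II and 0.23 with RNA level. After scaling the Spearman coefficient was 0.05 and 0.07. In the 10% of genes with most Pol II the median difference was 0.21, with 62 genes higher and 15 lower. After scaling that median was 0.02, with 12 higher and 10 lower. In the 10% with least Pol II the median was -0.10, with 27 higher and 47 lower, and after scaling it was -0.02, with 24 and 18.

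**Figure D5:**
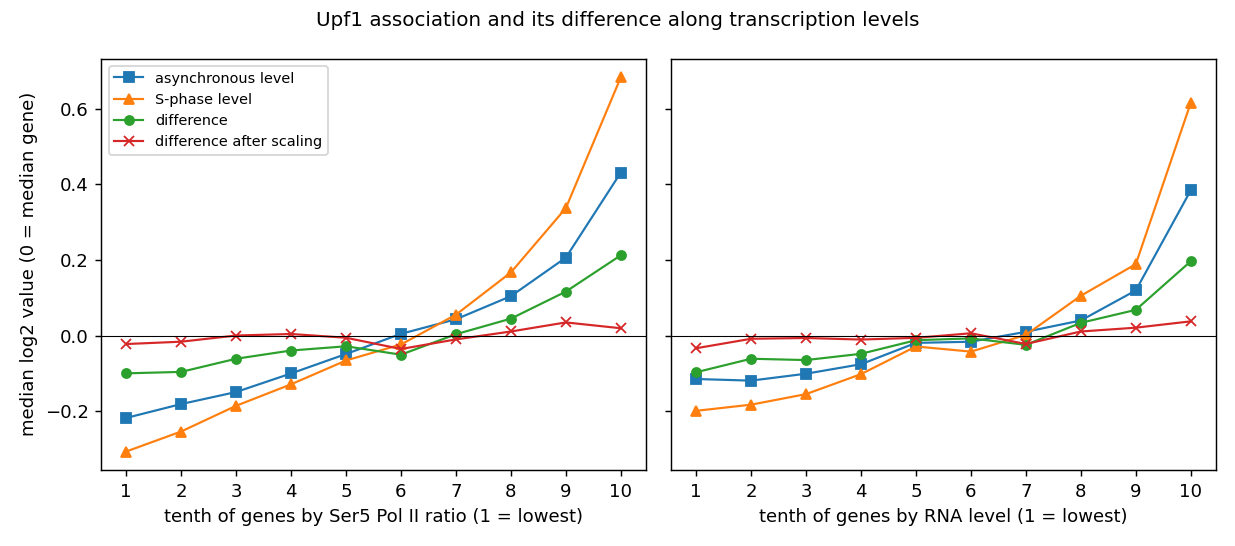
Median log2 Upf1 level in each culture, and median S-phase difference before and after scaling (vertical, 0 is the median gene), in 10 equal groups of genes by Ser5 Pol II ratio (left) and RNA level (right). The difference climbs to 0.21 in the top group by Pol II and the scaled difference there is 0.02.

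Scaling takes from each gene an amount that grows with its S-phase level, so the genes it removes from the higher set have high levels by construction, and the next values only describe them. The 99 genes that were higher before scaling only had median levels of 0.28 and 1.00, a median log2 Pol II ratio of 0.83 above the median gene, and were above the median gene in both cultures in 82 cases. The 86 that stayed higher had median levels of -0.34 and 0.59 and a median Pol II ratio of -0.18. Of the 86, 55 lay below the median gene in asynchronous cells and above it in S-phase cells. The 94 that stayed lower had 0.41 and -0.51, and 63 of them were above the median gene in asynchronous cells and below it in S-phase cells. Of all 4888 genes 570 crossed the median gene in each direction. Choosing genes by a large difference on both scales favours such crossing. Genes of any kind with a blank product or one named uncharacterised made up 22.1% of the 86 and 21.3% of the 94, against 6.08% of all genes. Genes under 1000 bp made up 36.0% and 38.3%, against 15.2%. Of the 86 genes 25 (29.1%) belong to a fixed list and of the 94 genes 34 (36.2%), against 23.9% of all genes. The fixed lists include the 132 non-coding RNA genes, which are not a function. These gave 9 of the 25 and 15 of the 34, so the shares do not show an excess of listed functions. Most genes of both ends, as of the whole table, thus lay outside the functions listed here.

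GC content went with the difference before scaling, with a Spearman coefficient of 0.16, and with the opposite sign after it, at -0.05. Gene length had a Spearman coefficient of 0.02 and 0.00. The spread of the difference was wider for short genes, and ordering all genes by length gave an SD of 0.27 for the longest 10% against 0.52 for the shortest 10%.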

How the data were processed

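Per the study's methods, the authors summarised Affymetrix tiling array probes to a signal per gene and deposited, for Upf1, the ratio of the IP signal to the mean of 2 inputs scaled to a common median; the IP columns were left unscaled. The aligned build of the array annotation is not given in the sources used here. The Pol II column deposited by the authors is a ratio of the same kind computed from published arrays, and the RNA column is a natural log of FPKM + 1, as its sums show (917913 per kb-weighted total with the natural base, 177585 with base 2).

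Of 4888 identifiers 4850 matched RefSeq names (assembly ASM294v3), which also gave length, GC content and promoters. Copies were genes with at least 90% identity over at least 50% of their length (BLAST 2.17.0), 98 in all. Ratios were converted to log2 and centred in Python 3.11.15 with pandas 2.3.3, and the difference was called at 1.5-fold. Array number limits the precision, since each culture has 1 IP array. The members and the 39 gene lists were chosen with earlier results of these data known, and 6 more lists were added after their values were seen. A total of 10 list members whose product names another role were removed, and 1 member of the cell separation list is not reported here. Genes named in the text were the 12 highest and 12 lowest on both scales, the 5 highest and 5 lowest of all, and list members past 1.5-fold; list members named though they did not pass it, and the genes of the strain's alleles, were chosen after their values were seen. The calculation was tested on simulated data. Each result was recomputed under 9 other settings and at 2 other fold thresholds.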

Additional observations from a re-analysis of the deposited data

Results flagged for a closer look

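Some of the genes named in the report were above the median gene in 1 culture and below it in the other, each time by at least 0.245 on the log2 scale, which is the SD of the S-phase difference over all genes divided by the square root of 2. With 1 array in each culture this opposition was not tested.

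Below the median gene in the asynchronous culture and above it in S phase were SPNCRNA.120 with a difference of 2.85, SPCP20C8.03 with 2.00, SPCC569.03 with 1.81, SPCP20C8.02c and SPCC569.02c with 1.66 each, and SPCC1884.01 with 1.45. Among these SPCP20C8.03, SPCP20C8.02c, SPCC569.03 and SPCC569.02c have near-identical copies elsewhere. Except for SPNCRNA.120 these lie at the ends of chromosome III, as do nic1 with 0.72 and hsp3101 with 0.71. Away from the ends were sro1 with 1.09, tim13 with 1.05, tos4 with 0.99 and atp14 with 0.76.

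Above the median gene in the asynchronous culture and below it in S phase were prl24 with -3.03, fex1 with -2.17, loc1 with -2.10, SPAC343.20 with -1.83, tim11 with -1.80, SPBC1711.15c with -1.77, cbp6 with -1.40, duo1 with -1.33, SPAC56F8.13 with -1.30, gst3 with -1.28, hem13 with -1.26, hsp9 with -1.20, ura4 with -0.87 and rfc4 with -0.81. Among these 14 genes fex1 resembles another gene closely, and loc1, SPAC343.20, tim11, SPBC1711.15c, cbp6, SPAC56F8.13, gst3 and rfc4 overlap another coding gene.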

How the results depend on the processing

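No paired analysis was possible because each culture has 1 IP array, and for the same reason no array could be left out. The counts of higher and lower genes were 89 and 104 with equal SD, 90 and 106 with equal median absolute deviation, 22 and 21 among the 386 genes without an annotated overlap or copy, 498 and 510 at 1.3-fold, and 31 and 42 at 2-fold. Among genes of at least 1000 bp 127 were lower. Without centring, 1 gene was higher and 4878 were lower, because the S-phase ratio was 3.97-fold lower at the median gene.

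The histone median of 0.59 was 0.31 with equal SD and 0.32 with equal median absolute deviation. The glycolysis median of 0.45 was 0.12, 0.13 and, after quantile normalisation, 0.087. The amino acid median of 0.31 was 0.67 among genes without overlap or copy, where fewer genes entered. The 40S median of 0.15 was -0.030, -0.021 and -0.040 under these 3 scalings, and the 60S median was -0.025, -0.013 and -0.036. The Spearman coefficient with Pol II, RNA level and GC content was 0.045, 0.066 and -0.052 with equal SD. Apart from the uncentred ratios, the medians of the MBF, cell separation and autophagy lists ran from 0.34 to 0.53, from 0.47 to 0.79 and from -0.26 to -0.19. Of 80 genes named in the report that passed 1.5-fold, all kept their direction under these settings wherever they were measured, and 56 remained past 1.5-fold with equal SD.

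The uncentred difference takes the same amount from every value and turns the sign of those above the median gene. The list medians were then -1.40 for histones, -1.55 for MBF genes, -1.26 for cell separation, -1.53 for glycolysis, -1.21 for fermentation, -1.67 for amino acid synthesis, -1.23 for ammonium and glutamate metabolism, -1.66 for iron uptake, -1.84 and -1.83 for the 40S and 60S genes, -1.89 for mitotic genes and -2.24 for autophagy. For single genes it was -0.18 at SPCC569.03, -0.32 at SPCP20C8.02c, -0.33 at SPCC569.02c, -0.42 at SPCP20C8.01c, -0.43 at pmp20, -0.53 at SPCC1884.01, -0.60 at ecl1, -0.66 at mpc2, -0.70 at SPCC569.05c, -0.74 at cdc18, -0.86 at ptr2, -0.89 at sro1, -0.90 at aat1, -0.91 at amt1, -0.91 at slp1, -0.93 at tim13, -0.95 at cig2 and -0.97 at adg1. It was -0.99 at tos4, -0.99 at lys4, -1.04 at ilv5, -1.04 at SPBC3E7.07c, -1.07 at ser3, -1.08 at eng1, -1.08 at SPAC683.02c, -1.08 at agn1, -1.10 at fip1, -1.10 at cdc22, -1.12 at hta1, -1.12 at gdh1, -1.13 at hhf1, -1.15 at adh1, -1.16 at fio1, -1.17 at SPAC607.02c and -1.18 at mcp60. The lowest of these values were -1.21 at adh4, -1.21 at leu1, -1.22 at gdh2, -1.23 at atp14, -1.24 at fep1, -1.24 at fba1, -1.24 at glt1, -1.26 at eno101, -1.27 at nic1, -1.28 at hsp3101, -1.29 at gpm1, -1.30 at cdt1, -1.31 at gln1, -1.32 at hhf2, -1.34 at hta2, -1.35 at nrm1, -1.39 at dad2 and -1.40 at hhf3. Which scaling is right cannot be settled with 1 array for each culture, and the number of arrays limits every value.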
